A study of Homo sapiens with 6 samples.

Results

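The caspases and their apoptosome partners were followed as a set of 8 listed genes: the caspase genes CASP2, CASP4, CASP6, CASP8 and CASP9, the apoptosome scaffold gene APAF1, the caspase inhibitor gene XIAP and its antagonist DIABLO. They were found by matching the Ensembl identifiers of the deposited tables to symbols, among 19493 genes with values. All 8 reached the level needed for testing (1 corrected RPKM, or cRPKM, in at least 2 libraries), as did 11926 genes in all. HaCaT cells, human epidermal keratinocytes that grow as a permanent line, were used, and every group expressed the cyclobutane pyrimidine dimer (CPD) photolyase of the marsupial Potorous tridactylus. Each of 3 groups had 2 libraries. In the first, cells received 15 J/m2 of UVC at 254 nm and 2 h of white light, which switches the photolyase on (UVC with active photolyase). In the second, the same dose was given and the photolyase stayed inactive (UVC). Both irradiated groups were harvested 6 h after UVC, as far as the labels say. The third was untreated, with the photolyase inactive (control). White light was given in the first group only, so light and photolyase activity cannot be told apart. The labels do not say whether replicates were separate cultures, so p-values measure only how far these libraries differ, possibly for technical reasons.

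Caspases are cysteine proteases made as inactive precursors. In the mitochondrial route of apoptosis, cytochrome c binds APAF1, which assembles into the apoptosome and activates caspase-9, and this initiator in turn cleaves the effector caspases. XIAP blocks caspase-9 and some of the effectors, though not caspase-6, and DIABLO (also called Smac) leaves the mitochondria to relieve that block. Death receptors use caspase-8 instead, and UV-damaged keratinocytes that die by apoptosis are the "sunburn cells" of irradiated epidermis. Caspases are controlled largely by cleavage and binding of the proteins, neither of which RNA levels show, and values per gene do not separate splice forms.

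Total counts were 69960028 and 67153025 in UVC with active photolyase, 58420526 and 57669389 in UVC, and 70005705 and 69585649 in control. Mitochondrial genes took 4.09 and 3.21% of the counts in UVC with active photolyase, 5.13 and 5.28% in UVC, and 3.32 and 3.92% in control, and the part of this share in the results was not tested. The tested keratinocyte markers numbered 8 of 8, and KRT14 stood at 4787 to 6120 scaled cRPKM over the libraries. Their summed level was 21611 to 21702 scaled cRPKM in UVC with active photolyase, 14022 to 14297 in UVC and 22733 to 23339 in control. KRT17 was the largest part of this sum in each group and followed it, averaging 12379, 5471 and 13683 in the same order. KRT5 went the other way, averaging 2576, 3129 and 2511. After UVC 2 of the 8 keratinocyte markers rose, KRT5 (0.32 on the log2 scale) and KRT15 (0.40), and ITGB4 was not called (0.14). The other 5 fell: KRT14 (-0.28), COL17A1 (-0.495), KRT17 (-1.32), TP63 (-1.67) and ITGA6 (-1.93). Over all tested genes 42.5% were called higher and 43.1% lower after UVC. Of markers of other cells, 1 of 7 for melanocytes, 2 of 9 for fibroblasts and 4 of 11 for immune cells were tested. TYR (melanocytes) and NKG7 (lymphocytes) had no read in any library, and PTPRC, the pan-leukocyte gene, stayed at or under 0.0451 scaled cRPKM. Summed, the immune list was 189 to 199 scaled cRPKM in UVC with active photolyase. It was 182 to 183 in UVC and 133 to 146 in control, most of it from CD74 (79.3 to 133 over the libraries) and CD68. CD68 averaged 79.4 in UVC with active photolyase, 48.7 in UVC and 51.2 in control, and CD74 averaged 112, 130 and 84.4. The fibroblast gene COL1A1 stood at 5.14 to 7.16 over the libraries. The part of these markers in the results was not tested. Levels below are the deposited cRPKM, which corrects reads for gene length and library size, divided by a TMM factor (trimmed mean of M values), here called scaled cRPKM. In bulk RNA of this kind, fewer cells with a transcript and less transcript per cell cannot be told apart.

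CASP4 was the most abundant of the 8 transcripts and APAF1 the least in each group. In control the order by length-corrected level was CASP4, DIABLO, CASP8, CASP9, CASP2, XIAP, CASP6 and APAF1. After UVC, CASP9 stood below CASP2 and CASP6, in sixth place, and in UVC with active photolyase it was back in the fourth, below CASP8. Neighbours in these orders did not overlap between libraries, except CASP6 (3.50 to 3.70 scaled cRPKM) and XIAP (3.08 to 3.57) in UVC with active photolyase. In control the median tested gene stood at 9.64 scaled cRPKM, so that CASP9, CASP2, XIAP, CASP6 and APAF1 lay under it and CASP8, DIABLO and CASP4 above it.

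**Figure D1:**
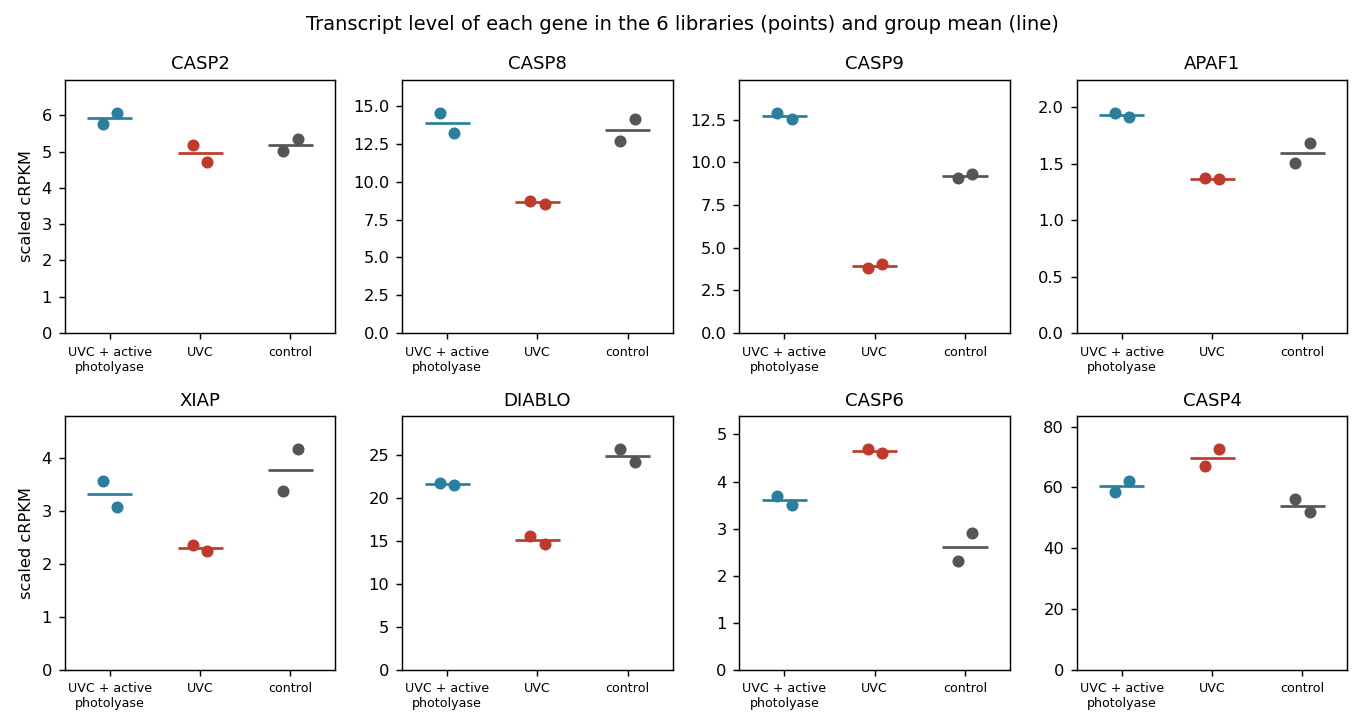
Scaled cRPKM (vertical axis, from 0, a separate scale for each gene) of the 8 genes in UVC with active photolyase, UVC and control; each point is a library and each line a group mean of 2. CASP9 is lowest in UVC (3.78 and 4.07) and highest in UVC with active photolyase (12.9 and 12.5), whereas CASP4 and CASP6 are highest in UVC.

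CASP9 (ENSG00000132906, chromosome 1), the initiator caspase of the apoptosome, had the largest log2 fold change of the 8 genes in UVC with active photolyase against UVC, and with TMM factors also in UVC against control. It measured 12.9 and 12.5 scaled cRPKM in UVC with active photolyase, 3.78 and 4.07 in UVC, and 9.08 and 9.29 in control. The 3 groups did not overlap, and the libraries with active photolyase lay above control as well as above UVC. CASP9 averaged 3.93 ± 0.200 in UVC and 9.18 ± 0.144 in control (SD, n = 2 each), and fell by 1.22 ± 0.07 on the log2 scale (SE here and below, adjusted p = 1.86e-09). Cells with active photolyase held 3.24-fold the UVC level (log2 1.69 ± 0.07, adjusted p = 7.54e-11) and 1.39-fold the control level (log2 0.47 ± 0.07, adjusted p = 4.03e-05). With library totals in place of TMM factors the change after UVC was -0.81, smaller than that of CASP6 (1.26). Among all tested genes the 3 changes stood at the 14.2nd, 94.5th and 85.0th percentiles from the lowest. The raw reads behind them were 1697 and 1586 in UVC with active photolyase, 514 and 547 in UVC, and 1110 and 1126 in control.

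APAF1 (ENSG00000120868, chromosome 12), the scaffold that activates caspase-9, was scarce and changed less. It stood at 1.95 and 1.91 scaled cRPKM in UVC with active photolyase, 1.37 and 1.36 in UVC, and 1.501 and 1.69 in control. The groups did not overlap. UVC held 0.856-fold the control level (log2 -0.22 ± 0.09, adjusted p = 0.0297). This call rested on scaling and on single libraries: the value was 0.19 with library totals (adjusted p = 0.0521), and without control replicate 2 it was -0.14 (adjusted p = 0.216). The call was also lost without UVC replicate 1, without UVC replicate 2 and without UVC with active photolyase replicate 2 (adjusted p = 0.096, 0.1 and 0.0802), and with DESeq2 (adjusted p = 0.071). Active photolyase with its light exceeded UVC by 41.1% (log2 0.50 ± 0.09, adjusted p = 0.000131) and control by 20.9% (log2 0.27 ± 0.09, adjusted p = 0.0128). With library totals the first of these was 0.19 (adjusted p = 0.0526), and without control replicate 1 the second was 0.19 (adjusted p = 0.0957), while without UVC with active photolyase replicate 1 it was 0.26 (adjusted p = 0.0588).

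CASP8 (ENSG00000064012, chromosome 2), the initiator recruited by death receptors, fell after UVC and was higher than in UVC in cells with active photolyase. Its libraries held 14.6 and 13.2 scaled cRPKM in UVC with active photolyase, 8.77 and 8.57 in UVC, and 12.7 and 14.2 in control. The UVC pair lay below every other library, while the other pairs overlapped. UVC against control gave -0.63 ± 0.07 on the log2 scale (adjusted p = 1.26e-06), or 0.645-fold. Cells with active photolyase gave 0.68 ± 0.07 against UVC (adjusted p = 8.78e-07), and against control 0.05 ± 0.07 (adjusted p = 0.552), with a 95% interval of -0.10 to 0.20 for that difference. Library totals kept both calls at smaller sizes (-0.21 and 0.37).

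CASP2 (ENSG00000106144, chromosome 7), an initiator activated on the PIDDosome, differed little between the groups. Levels were 5.76 and 6.07 scaled cRPKM in UVC with active photolyase, 5.18 and 4.72 in UVC, and 5.01 and 5.34 in control. UVC and control overlapped (log2 -0.06 ± 0.07, adjusted p = 0.424, 95% interval -0.21 to 0.09). With library totals this value was 0.36 and passed the test (adjusted p = 0.000238). Cells with active photolyase were above both, by 0.26 ± 0.07 against UVC (adjusted p = 0.00409) and 0.19 ± 0.07 against control (adjusted p = 0.0253). The first turned to -0.05 with library totals and lost its call without UVC with active photolyase replicate 2 or UVC replicate 2 (adjusted p = 0.0818 and 0.0662). The second lost it without UVC with active photolyase replicate 2 or control replicate 1 (adjusted p = 0.144 and 0.111), with DESeq2 (adjusted p = 0.0537) and with no filter on cRPKM (adjusted p = 0.0997).

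CASP6 (ENSG00000138794, chromosome 4), an effector caspase that cleaves nuclear lamin A, was one of the pair that rose after UVC. Its libraries measured 3.70 and 3.50 scaled cRPKM in UVC with active photolyase, 4.68 and 4.62 in UVC, and 2.30 and 2.91 in control. No groups overlapped, and active photolyase lay between the others. The UVC level was 1.79-fold that of control (log2 0.84 ± 0.12, adjusted p = 1.87e-05), on 437 and 426 reads in UVC and 193 and 242 in control. The level with active photolyase was 0.774-fold that of UVC (log2 -0.37 ± 0.12, adjusted p = 0.00966) and 1.38-fold control (log2 0.47 ± 0.12, adjusted p = 0.00501). The first call was lost without UVC replicate 1 (adjusted p = 0.0584), where the value was -0.36. The second was lost without control replicate 1 (0.31, adjusted p = 0.0532).

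CASP4 (ENSG00000196954, chromosome 11), an inflammatory caspase that binds bacterial lipopolysaccharide in the cytosol and cleaves gasdermin D, also rose after UVC. It measured 58.7 and 62.3 scaled cRPKM in UVC with active photolyase, 67.2 and 72.5 in UVC, and 56.05 and 52.0 in control. Again the groups did not overlap and active photolyase lay between. UVC exceeded control by 29.5% (log2 0.37 ± 0.06, adjusted p = 3.53e-05), a value of 0.79 with library totals. With active photolyase the level was 0.865-fold UVC (log2 -0.21 ± 0.06, adjusted p = 0.00443) and 12.1% above control (log2 0.16 ± 0.06, adjusted p = 0.023). The first of these lost its call without UVC replicate 2 or UVC with active photolyase replicate 1 (adjusted p = 0.0731 and 0.0565). The second lost it without UVC with active photolyase replicate 2 or control replicate 2 (adjusted p = 0.165 and 0.129), and with no filter on cRPKM (adjusted p = 0.137).

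The sequences before the transcription starts of CASP9, CASP6 and CASP4 are shown because these genes gave the largest fall and the rises after UVC with TMM factors. They are the 250 bases upstream of a RefSeq start in build GRCh38.p14, all on the minus strand, printed 5′ to 3′, while the deposited values used hg19, and which start HaCaT cells use was not analysed here. Capitals mark the GC box letters GGGCGG on either strand, where overlapping matches each count.
CASP9, chr1:15524216-15524465: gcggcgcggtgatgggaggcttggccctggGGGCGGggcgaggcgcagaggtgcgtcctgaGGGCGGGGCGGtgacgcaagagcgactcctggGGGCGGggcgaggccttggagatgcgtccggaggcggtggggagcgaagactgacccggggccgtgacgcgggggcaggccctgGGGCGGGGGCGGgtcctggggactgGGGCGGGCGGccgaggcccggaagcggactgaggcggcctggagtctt
CASP6, chr4:109703446-109703695: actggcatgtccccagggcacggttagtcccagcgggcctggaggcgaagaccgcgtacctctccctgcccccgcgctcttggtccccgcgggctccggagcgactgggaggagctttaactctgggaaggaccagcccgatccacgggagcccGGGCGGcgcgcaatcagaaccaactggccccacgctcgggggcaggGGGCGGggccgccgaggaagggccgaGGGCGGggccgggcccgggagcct
CASP4, chr11:104968575-104968824: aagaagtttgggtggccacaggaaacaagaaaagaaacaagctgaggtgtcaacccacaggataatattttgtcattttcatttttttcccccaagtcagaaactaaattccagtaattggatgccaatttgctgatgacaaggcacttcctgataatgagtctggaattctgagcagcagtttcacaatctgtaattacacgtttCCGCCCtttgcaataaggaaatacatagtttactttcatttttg
The CASP9 window held 8 GC boxes at 77.6% G and C, and a second RefSeq start of the gene also had 8 in its window. The CASP6 window held 3 at 74.0% G and C, and the CASP4 window 1 at 38.0%. Of 35116 such windows in RefSeq, 42.6% held at least 1 GC box and 0.58% at least 8. All 8 genes had at least 1 window, 17 in all, and no other window of the set held more than 4. The AP-1 letters TGANTCA, searched on both strands, were in 1 of the 17 (a CASP8 start) and in 6.6% of all windows. These matches describe letters and were not linked to the expression values by any test.

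XIAP (ENSG00000101966, chromosome X), which binds and blocks caspase-9 and some effector caspases, fell after UVC. Libraries measured 3.57 and 3.08 scaled cRPKM in UVC with active photolyase, 2.35 and 2.25 in UVC, and 3.37 and 4.16 in control. UVC lay below all others, and the remaining pairs overlapped. UVC held 0.612-fold the control level (log2 -0.71 ± 0.13, adjusted p = 0.000154), or -0.29 with library totals (adjusted p = 0.0435). Active photolyase gave 1.45-fold the UVC level (log2 0.53 ± 0.13, adjusted p = 0.0019), which library totals reduced to 0.23, not called (adjusted p = 0.112). Against control it gave -0.18 ± 0.12 (adjusted p = 0.227, 95% interval -0.44 to 0.09), and without control replicate 1 this was -0.32 with an adjusted p of 0.0413. With 239 to 399 reads a library, XIAP had the widest standard errors of the set together with CASP6.

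DIABLO (ENSG00000184047, chromosome 12), the mitochondrial antagonist of XIAP, fell after UVC as well. It stood at 21.8 and 21.5 scaled cRPKM in UVC with active photolyase, 15.7 and 14.7 in UVC, and 25.7 and 24.3 in control. The groups did not overlap, and active photolyase lay between the others. UVC held 0.609-fold the control level (log2 -0.72 ± 0.06, adjusted p = 3.64e-08), or -0.30 with library totals. With active photolyase it was 1.43-fold UVC (log2 0.51 ± 0.06, adjusted p = 1.93e-06) and 0.868-fold control (log2 -0.20 ± 0.06, adjusted p = 0.00553). The last call was lost with library totals (-0.09, adjusted p = 0.15), as it was when cRPKM values were used as deposited.

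In UVC against control, 2 of the 8 genes rose (CASP4 and CASP6), 5 fell (CASP9, DIABLO, XIAP, CASP8 and APAF1) and CASP2 was not called. Over all tested genes 85.6% were called, 42.5% higher and 43.1% lower, so that calls by themselves do not set these genes apart. The median log2 fold change of the 8 was -0.43, beside 0.00 over all tested genes. The balance depended on scaling: library totals moved the median of all genes to 0.42 and that of the 8 to -0.01. Calls over all genes were then 7095 higher and 3542 lower, against 5074 and 5140 with TMM factors, and 3 of the 8 were higher and 4 lower. With TMM factors CASP9 alone of the 8 changed by at least 2-fold, downward, as did 18.6% of tested genes. With library totals CASP9 (-0.81) did not reach 2-fold, and CASP6 (1.26) did so upward.

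UVC with active photolyase against UVC addressed what photolyase activity with its light changed. Here 6 of the 8 genes were higher (CASP9, CASP8, XIAP, DIABLO, APAF1 and CASP2) and 2 lower (CASP6 and CASP4). The background was 79.1% called, 39.2% higher and 39.9% lower. The median of the 8 was 0.50, beside -0.04 over all tested genes. CASP9 again was the only one past 2-fold, as were 14.0% of tested genes upward. With library totals 3 stayed higher (CASP9, CASP8 and DIABLO) and 2 lower, while over all genes 3318 were higher and 6954 lower, against 4676 and 4755 with TMM factors. This comparison shares its UVC libraries with the one before, so opposite signs in the 2 are not independent.

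UVC with active photolyase against control left smaller differences. Of the 8, 5 were higher (CASP9, CASP6, APAF1, CASP2 and CASP4), DIABLO was lower, and XIAP and CASP8 were not called. None of the 8 reached 2-fold. The background was 65.8% called, 33.0% higher and 32.9% lower, and the median was 0.18 for the 8 and 0.01 for all tested genes. Library totals gave 5 higher and 0 lower of the 8. All genes then gave 5237 higher and 2840 lower, against 3933 and 3919 with TMM factors. DESeq2 gave 4 higher and 1 lower of the 8, and 3507 higher and 3664 lower of all genes.

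**Figure D2:**
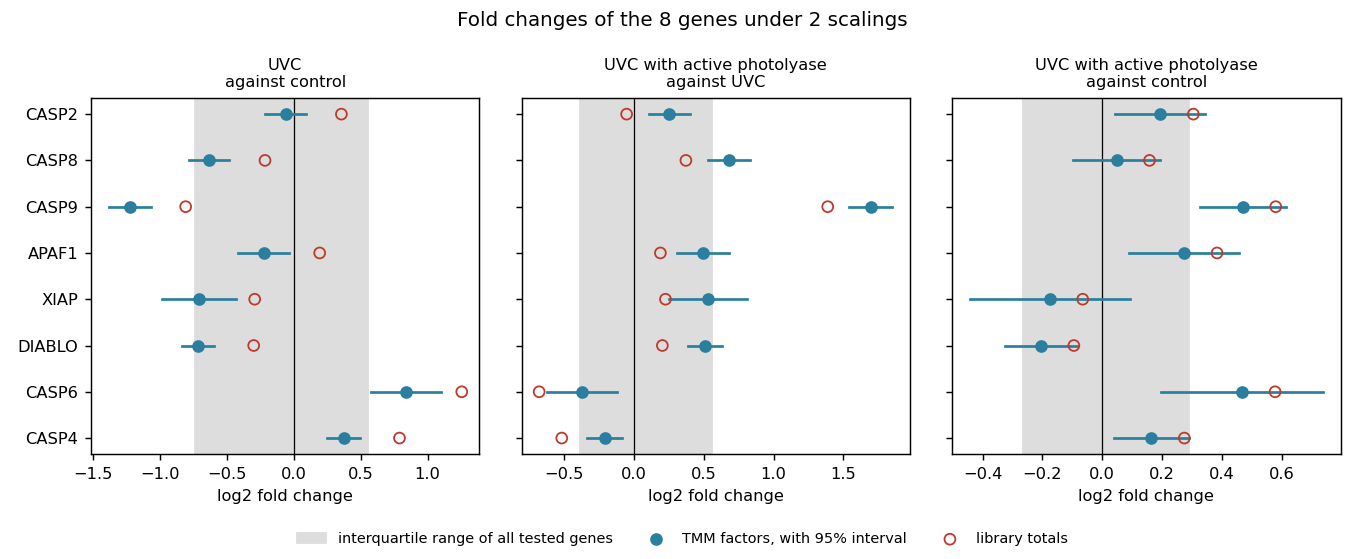
Log2 fold changes (horizontal axis) of the 8 genes (rows) in the 3 comparisons, with TMM factors (filled points, with 95% intervals) and with library totals (open points); the grey band is the interquartile range of all 11926 tested genes. CASP9 lies outside the band in all 3 panels, at -1.22, 1.69 and 0.47, and open points shift right of filled ones in the comparisons with control.

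Ratios between genes of 1 library do not depend on scaling between libraries and are given as values without a test. The ratio of CASP9 to APAF1, in deposited cRPKM, was 6.62 and 6.55 in UVC with active photolyase, 2.76 and 2.99 in UVC, and 6.05 and 5.51 in control. UVC libraries thus had less caspase-9 transcript per scaffold transcript than any other library. CASP9 over its inhibitor XIAP was 3.61 and 4.06 with active photolyase, 1.61 and 1.81 in UVC, and 2.69 and 2.23 in control, and the 3 groups did not overlap. The ratio of the antagonist DIABLO to XIAP was 6.54 ± 0.629 with active photolyase, 6.60 ± 0.0776 in UVC and 6.72 ± 1.27 in control (SD, n = 2 each). These means differed by less than the spread between control replicates.

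Among caspases, the balance of the 2 initiators shifted too. CASP9 over CASP8 was 0.885 and 0.948 in UVC with active photolyase, 0.431 and 0.474 in UVC, and 0.715 and 0.654 in control. The inflammatory CASP4 over CASP8 was 4.03 and 4.71 with active photolyase, 7.66 and 8.46 in UVC, and 4.41 and 3.66 in control. Here UVC stood apart and the other pairs overlapped. CASP6 over CASP8 was 0.254 and 0.265 with active photolyase, 0.534 and 0.538 in UVC, and 0.181 and 0.205 in control. As a share of the summed cRPKM of the 5 caspases, CASP4 made up 61.4 and 63.8% with active photolyase, 74.97 and 76.7% in UVC, and 65.8 and 62.1% in control. CASP9 made up 13.5 and 12.8% with active photolyase, 4.22 and 4.303% in UVC, and 10.7 and 11.1% in control.

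**Figure D3:**
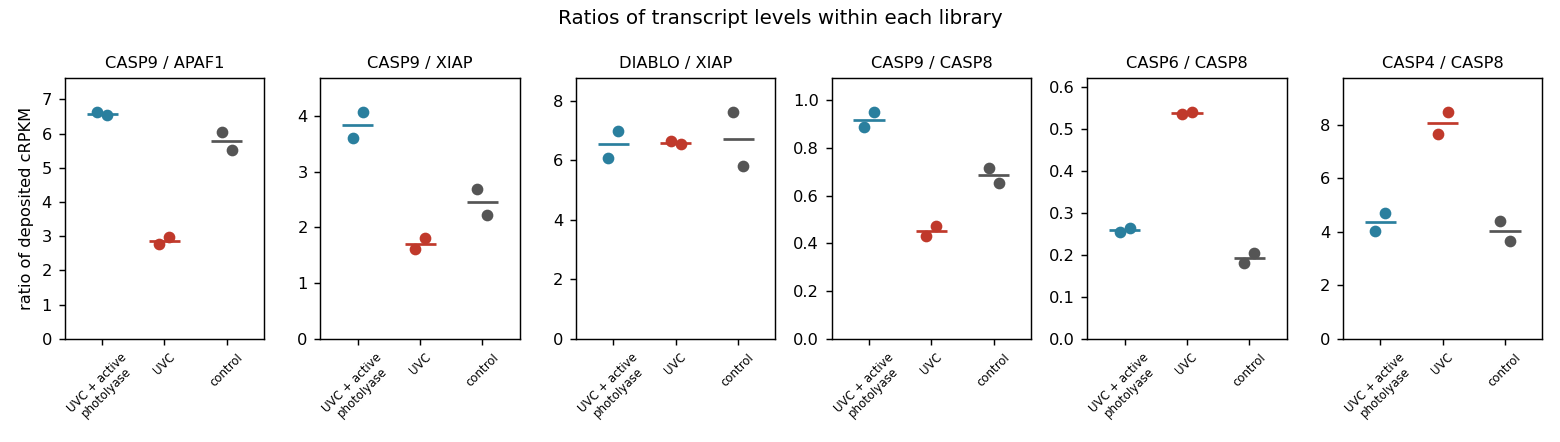
Ratios of deposited cRPKM between pairs of genes (vertical axes, from 0) in each library (points) with group means (lines), for UVC with active photolyase, UVC and control. CASP9 over APAF1 is 2.76 and 2.99 in UVC against 5.51 to 6.62 in the other libraries, and DIABLO over XIAP overlaps in all 3 groups.

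Of 4 other caspase genes described here, 3 were tested, of which 2 rose and 0 fell after UVC by edgeR and by DESeq2 (median log2 fold change 0.55, beside 0.00 over all tested genes). Over all tested genes 42.5% were called higher and 43.1% lower after UVC, and 39.2% and 39.9% with active photolyase against UVC. CASP14, the caspase of cornifying keratinocytes, stood at 68.7 ± 2.58 scaled cRPKM in UVC and 31.6 ± 0.760 in control (SD, n = 2 each), and rose by 1.12 ± 0.06 on the log2 scale. CASP1, which matures interleukin 1 beta, rose by 0.55 ± 0.06, to 37.9 ± 0.843 in UVC. CASP5 was under the filter, and CASP10 was not called (-0.05 ± 0.08, adjusted p = 0.58). In UVC with active photolyase against UVC, CASP14 was lower (-0.68 ± 0.06), CASP10 was higher (0.42 ± 0.08) and CASP1 was not called (-0.05 ± 0.06). With library totals all 3 tested genes were called higher after UVC, and in UVC with active photolyase against UVC 0 were higher and 2 lower, as with limma on either pseudocount. Over all genes library totals gave 7095 higher and 3542 lower after UVC, and 3318 and 6954 with active photolyase against UVC. These are the background for library totals in the lists below.

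The next 10 genes were listed for the platforms that activate caspases, but HTRA2, AIFM1 and ENDOG among them are not parts of such platforms. After UVC 6 of the 10 rose and 3 fell (median 0.35). In UVC with active photolyase against UVC, 4 were higher and 5 lower (median -0.18). HTRA2 (0.36) and ENDOG (0.34) were among the 6 rises. HTRA2 is also counted among the rises of the inhibitor of apoptosis list below. Over all genes the shares were 42.5% higher and 43.1% lower after UVC, and 39.2% higher and 39.9% lower in the second comparison. Library totals gave 7 rises and 3 falls after UVC (median 0.77), and 3 higher and 7 lower in UVC with active photolyase against UVC (median -0.49). CFLAR, the decoy that restrains caspase-8, had the largest fall, to 14.2 ± 0.594 scaled cRPKM in UVC (log2 -1.91 ± 0.06), followed by the kinase gene RIPK1 (-1.66 ± 0.06). Both were higher with active photolyase than in UVC (1.73 ± 0.06 and 1.46 ± 0.06). PIDD1, the sensor of the PIDDosome that activates caspase-2, rose to 8.44 ± 0.289 (log2 1.09 ± 0.07), and PYCARD, the inflammasome adaptor, to 62.8 ± 3.398 (log2 0.82 ± 0.06).

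A list of 12 genes held inhibitor of apoptosis (IAP) genes, IAP antagonists, and also ARIH1, CAAP1 and AVEN, which are neither. Of these 12, 9 were tested, and 3 rose and 4 fell after UVC (median -0.21), beside 42.5% higher and 43.1% lower over all genes. ARIH1, CAAP1 (-0.28 ± 0.08) and AVEN (-0.24 ± 0.08) were among the 4 falls. BIRC5 (survivin), best known for its role in mitosis, rose by 0.88 ± 0.10, and BIRC6, a giant ubiquitin ligase, by 0.69 ± 0.10. ARIH1, a ubiquitin ligase, fell (-1.17 ± 0.05), and BIRC2 (cIAP1) gave -0.35 ± 0.06, which was 0.07 with library totals (adjusted p = 0.304). BIRC7, NAIP and SEPTIN4 were under the filter. In UVC with active photolyase against UVC, 3 of the 9 were higher and 5 lower, beside 39.2% higher and 39.9% lower over all genes. With library totals the 9 gave 6 rises and 1 fall after UVC, and 1 higher and 6 lower in UVC with active photolyase against UVC. All genes then gave 7095 rises and 3542 falls after UVC, and 3318 higher and 6954 lower in the second comparison.

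Of 16 genes listed for caspase substrates, all tested, 7 rose and 6 fell after UVC (median 0.03). DFFB among them is not such a substrate. It was one of the 7 rises (1.84 ± 0.18), at low levels averaging 1.40 scaled cRPKM in UVC and 0.390 in control. In UVC with active photolyase against UVC, 4 were higher and 8 lower (median -0.16). Over all genes 42.5% were higher and 43.1% lower after UVC, and 39.2% and 39.9% in the second comparison. GSDMD, the pore protein cut by caspase-4, rose by 0.79 ± 0.07, to 9.85 ± 0.128 scaled cRPKM in UVC. NUMA1, a spindle protein, rose by 0.65 ± 0.05. PAK2, a kinase, fell by 1.13 ± 0.05, and GSDME, another gasdermin pore protein, fell by 0.81 ± 0.05. Library totals gave 10 rises and 5 falls among the 16 after UVC (median 0.45), and 1 higher and 12 lower in UVC with active photolyase against UVC (median -0.46). All genes then gave 7095 rises and 3542 falls, and 3318 higher and 6954 lower.

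**Figure D4:**
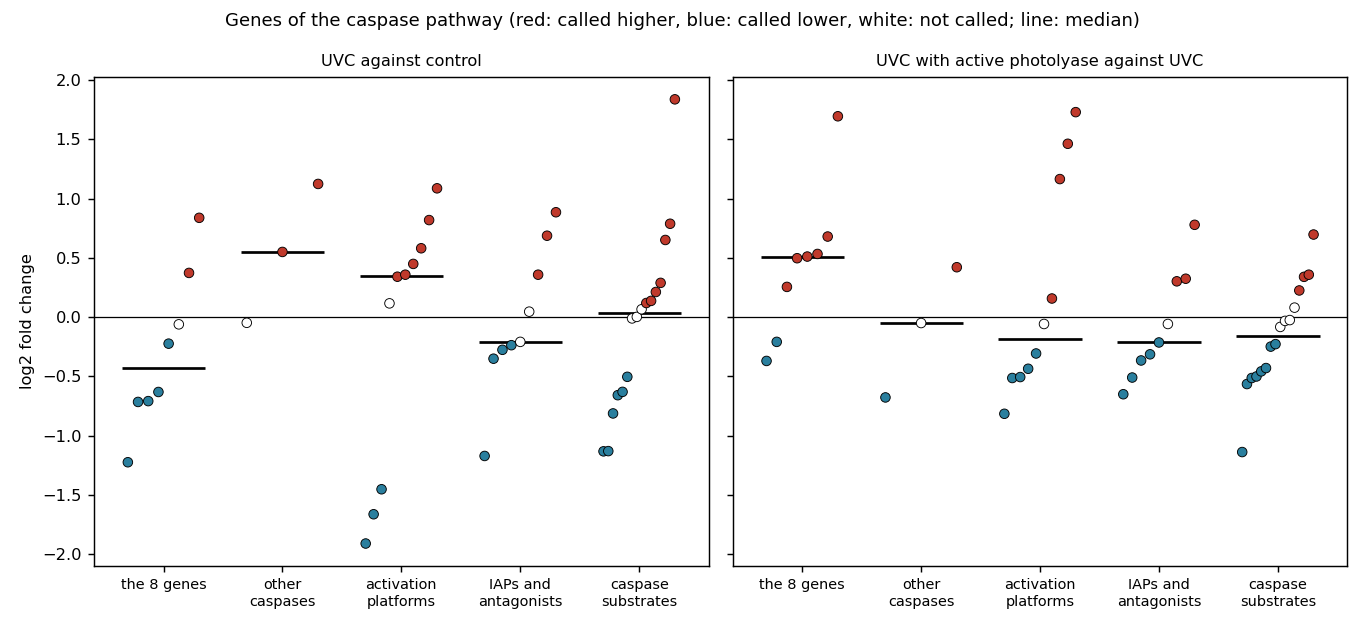
Log2 fold changes with TMM factors (vertical axis) of tested genes in the set of 8 and in 4 further lists, for UVC against control (left) and UVC with active photolyase against UVC (right); red points were called higher, blue lower and white not called, and lines are list medians. The lowest point after UVC is CFLAR (-1.91), and CASP9 (1.69) and CFLAR (1.73) are the highest in the right panel.

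Fold changes after UVC differed with the length of genes in these libraries, so the 8 genes were set beside tested genes of like span in GENCODE v29 gene models (build GRCh38), which covered 98.3% of tested genes. Genes under 15 kb had a median log2 fold change of 0.33 after UVC, and genes of 60 to 120 kb one of -0.30. In genes of 120 kb or more it was -0.17, so the medians did not fall steadily with length. CASP6, the shortest of the 8 at 15.0 kb, lay above the upper quartile of its class (0.84, beside 0.74). CASP9, at 35.7 kb, lay below the lower quartile of genes of 30 to 60 kb (-1.22, beside -0.91), while CASP8 and XIAP (54.3 kb each) lay within it. APAF1, the longest at 90.3 kb, changed by -0.22, nearer 0 than the median of its class. With active photolyase against UVC, CASP9 lay above the upper quartile of its class (1.69, beside 0.71), and the other 7 within the quartiles of theirs.

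**Figure D5:**
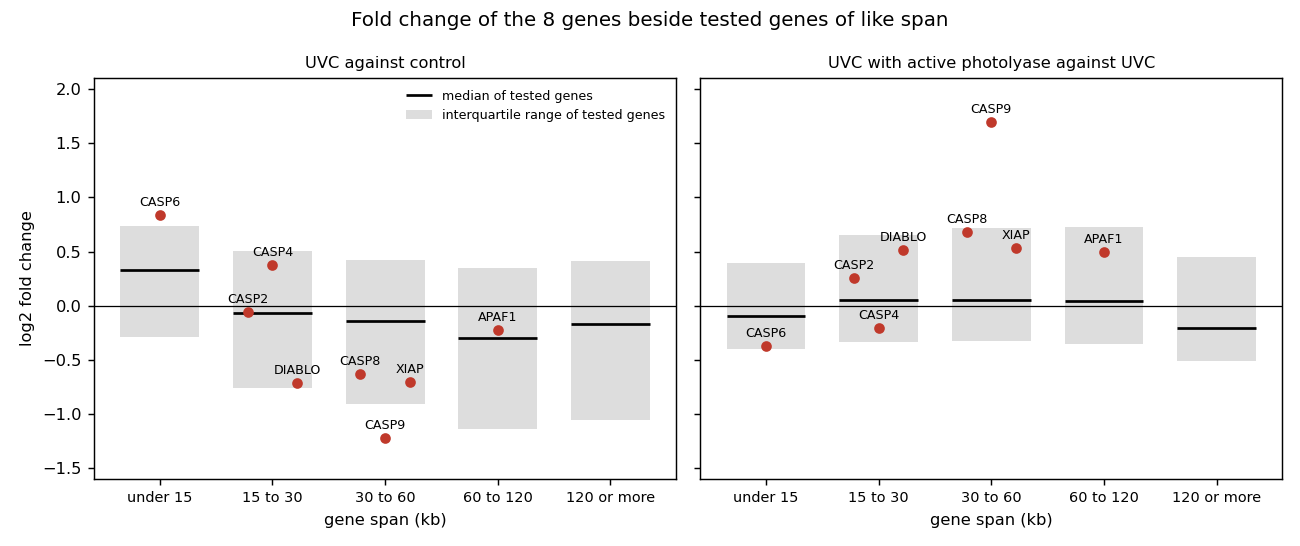
Log2 fold change (vertical axis) by gene span class in kb (horizontal axis), for UVC against control and for UVC with active photolyase against UVC; grey boxes are interquartile ranges and black lines medians of tested genes, and red points are the 8 genes. CASP9 lies outside the box of the 30 to 60 kb class in both panels.

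Exons of several of the genes overlap others on the opposite strand in GENCODE v29, and whether counting used strand is not given in the sources used here, so reads in the overlaps cannot be told apart. CASP6 shares 105 of 1943 exonic bases with MCUB, whose libraries stood at 3.403 and 3.63 scaled cRPKM in UVC and 4.61 and 4.48 in control. The part of MCUB reads in the CASP6 values was not tested. CASP9 shares 106 bases with CELA2B and APAF1 750 with ANKS1B, both at no more than 0.079 scaled cRPKM. DIABLO shares 970 with B3GNT4, at 0.974 and 1.03 in UVC and 0.305 and 0.385 in control. On its own strand it shares 2006 of 6774 exonic bases with a second gene model of the symbol DIABLO. It shares 1139 there with AC048338.1. How reads in these bases were assigned is not given in the sources used here.

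Likeness of pattern was measured over the 6 libraries as the root mean square difference of centred log2 levels, among 7890 tested genes (7891 for members under the level limit) with a mean of at least 5 scaled cRPKM. Nearest to CASP9 were CGAS (0.0416) and CLTRN (0.0559). Nearest to CASP8 were CACTIN and RNF146, to APAF1 CCNL1 and VCPKMT, to CASP6 CCNL2 and SHFL, and to CASP4 AIG1 and PQBP1. IRF2BP1 and SHMT2 were nearest to CASP2, AP5Z1 and PLEKHN1 to XIAP, and RAN and a gene with no symbol here (ENSG00000100101) to DIABLO. Within the set, CASP8 and XIAP were the closest pair (0.104) and CASP6 and CASP9 the farthest apart (0.980).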

How the data were processed

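RNA of 6 HaCaT libraries went into Illumina TruSeq libraries, per the labels. The submitters' processing notes name Bowtie and build hg19, with no version. The authors deposited 2 values per gene, an RPKM with a correction (cRPKM) and a read count. The sources used here do not give the annotation, the counting rule or whether strand was used. Of 19847 genes, 354 had no value, and 19180 identifiers matched a symbol. The counts went into edgeR 4.0.16 under R 4.3.3 (quasi-likelihood F test, 3 group means over 6 libraries, TMM factors, 1 cRPKM in 2 libraries, two-sided). P-values were adjusted by Benjamini and Hochberg over 11926 genes and called under 0.05. Standard errors are the fold change over the root of F. The test was checked on simulated counts in which few genes changed, as many up as down. Such a check does not cover data like these, where 85.6% of tested genes were called after UVC. Replicates differed by more than sampling noise (chi-square per degree of freedom 5.60 to 24.2). The 8 genes and all lists were chosen with earlier results of these data known. Some listed genes are not reported here. Every member was named, as were up to 2 rises and 2 falls of smallest p in each pathway list after UVC, any list gene under the filter, and the 2 genes nearest to each member. CASP10, HTRA2, AIFM1, ENDOG, CAAP1, AVEN and DFFB were named in addition, after their values were seen. Alternatives were library totals, relative log expression, DESeq2 1.42.0, limma 3.58.1 on log2(cRPKM + 1) or log2(cRPKM + 0.1), a filter of 5 cRPKM or none, only the 4 libraries compared, a replicate block, and leaving out each library.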

Additional observations from a re-analysis of the deposited data

How the results depend on the processing

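Of 21 calls on the 8 genes in 3 comparisons, 10 were kept in each of the alternatives that tested the gene: CASP4, CASP6, CASP8, CASP9, XIAP and DIABLO after UVC, CASP8, CASP9 and DIABLO in UVC with active photolyase against UVC, and CASP9 against control. The share of calls kept over all tested genes was not computed, so these counts do not set the 8 genes apart. Several directions changed with scaling. With library totals, limma on log2(cRPKM + 1) and limma on log2(cRPKM + 0.1), the log2 fold change after UVC of CASP2 became 0.36, 0.30 and 0.35 and that of APAF1 0.19, 0.12 and 0.19. In UVC with active photolyase against UVC, CASP2 became -0.051, -0.041 and -0.047. In the same order of settings, BIRC2 became 0.066, 0.059 and 0.061 in UVC against control, and in UVC with active photolyase against UVC -0.0051, -0.0011 and -0.0011. GSDME with active photolyase against UVC became -0.23, -0.21 and -0.22 from 0.08, and -0.017 with a filter of 5 cRPKM. These 3 settings use no TMM factor.

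In these 3 settings, 3 of the 8 genes were called higher in UVC with active photolyase against UVC. Against control 0 were lower, where edgeR with TMM factors and DESeq2 each gave 1. Over all genes the 3 settings gave 3302 to 3318 higher in the first comparison and 2725 to 2840 lower in the second. A filter of 5 cRPKM, which dropped APAF1 and XIAP, left 3 called lower after UVC and gave CASP2 a value of 0.058. Of 8646 genes tested with that filter, 3955 were higher and 3674 lower after UVC. No filter left 3 called higher with active photolyase against control, where CASP2 and CASP4 lost their calls. Of 18223 genes tested without a filter, 4107 were higher and 4508 lower in that comparison. Leaving out a library changed some calls, as given for each gene above, and moved the log2 fold changes. After UVC, APAF1 ran from -0.30 to -0.14 and CASP9 from -1.28 to -1.17. In UVC with active photolyase against UVC, CASP4 ran from -0.29 to -0.15 and CASP9 from 1.64 to 1.75. Against control, CASP6 with active photolyase ran from 0.31 to 0.65. The value of CASP2 after UVC then ran from -0.13 to 0.0048 (without UVC replicate 2), and that of CASP8 with active photolyase against control from -0.030 (without control replicate 1) to 0.13. The cause of these changes was not tested.

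Same-numbered replicates deviated together at correlations of -0.02 to 0.179, so the numbers were not taken to pair libraries. With a replicate block, calls over all genes were 5086 higher and 5152 lower after UVC, and no call on the 8 genes changed. XIAP and CASP6 had the fewest reads of the 8 genes.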
